A study of Homo sapiens with 15 samples.

Results

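Cells from metachronous brain metastases of HCC1954, an established HER2-positive human breast cancer line, were compared with the parental line. The comparison takes 7 of the 15 RNA libraries of the series. M-BM 1 to 4 are labelled as brain-tropic metachronous metastatic cells and Pa 1 to 3 as the parental line. All 7 share the tumour line, the labels name no drug or genetic change in either group, and all were cultured overnight in a medium called R3F before RNA was taken. The labels give neither the host animal nor the number of animals or clones behind the M-BM cells, nor whether each library came from its own culture. Of the 19845 gene names in the tables, 9747 reached a value of 10 in 3 or more of these 7 libraries and make up the comparison. The series also holds 4 libraries of cells from synchronous brain metastases (S-BM) and 4 of latent or residual brain-tropic cells (Lat), which are used here only to place M-BM.

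HER2 is a receptor tyrosine kinase whose gene, ERBB2, lies in an amplified segment of the long arm of chromosome 17 in such tumours, and its signal runs through the PI3K and MAP kinase pathways. A metachronous metastasis is one that becomes apparent some time after the primary tumour, whereas a synchronous one is found together with it. Tumour cells that grow in brain meet astrocytes, microglia and the plasmin that these cells help to activate, and they depend on adhesion to vessel and matrix, on cystine and glutamine supply, and on escape from innate immune cells. Interferon-stimulated genes, retinoid-response genes and luminal keratins are widely used readouts of signalling and of epithelial state in breast cancer cells.

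Values are normalized counts as deposited, and those of a library summed to between 986930 and 1026297. M-BM libraries held 20.55, 21.84, 20.75 and 21.08 M reads assigned to genes, and Pa libraries 15.51, 16.26 and 18.66 M reads, as recovered from the values. A count of 3 reads equals a value between 0.136 and 0.148 in M-BM and between 0.164 and 0.198 in Pa; such limits cover counting error only. M-BM and Pa stand in tables that were normalized separately, so group and table cannot be told apart, no test was run between them, and values are set side by side as levels. The scales of the tables were close: the median over genes of the M-BM to Pa ratio was 1.0037, and TMM scaling of the recovered reads of the 7 libraries together changed values by factors between 0.991 and 1.013. Every pair of libraries within a group differed by more than sampling noise. The 9 markers of a HER2-positive epithelial line all passed the filter, with summed values of 8480 to 12700 in M-BM and 12100 to 12800 in Pa; KRT8 and ELF3 among them were called lower and GRB7 higher by the rule below.

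A gene was called higher in M-BM when each of the 4 M-BM values lay above each of the 3 Pa values and the mean of log2(value + 1) differed by at least 1, a 2-fold difference on that scale; lower was defined in the same way. By this rule 1883 of 9747 genes (19.3%) were called, 778 higher (7.98%) and 1105 lower (11.3%). With a 4-fold difference 425 genes (4.36%) were called, 136 higher (1.4%) and 289 lower (2.97%). Absence of overlap without a minimum difference held for 6585 genes (67.6%), split evenly into 3292 higher and 3293 lower, and the median difference over all genes was 0.00. Counts and medians of the gene lists below are to be read against these shares and this median. In RNA from whole cultures, fewer cells of a type and less RNA per cell cannot be told apart. The median SD of log2 values over libraries was 0.167 in M-BM and 0.099 in Pa. Across the 9747 genes the correlation of log2 values between libraries had a median of 0.976 within M-BM, 0.992 within Pa and 0.804 between them. Differences below are M-BM minus Pa on the log2(value + 1) scale, which understates the change of low genes, and each ± after such a difference is its SE over 4 and 3 libraries. Values of single libraries follow the order of their numbers.

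**Figure D1:**
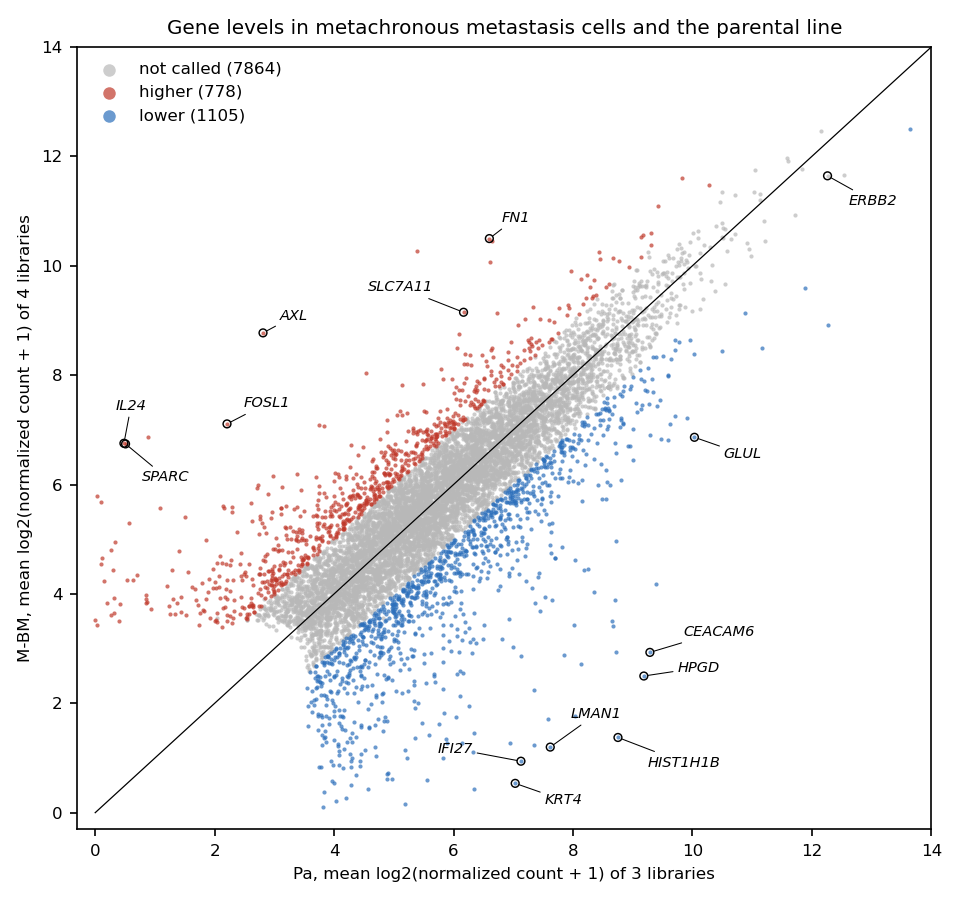
Mean log2(normalized count + 1) of each of 9747 genes in the 3 Pa libraries (x axis) and the 4 M-BM libraries (y axis); red points are the 778 genes called higher, blue points the 1105 called lower, and the line marks equal levels. IL24, SPARC and AXL lie far above the line, HPGD, CEACAM6 and LMAN1 far below it, and ERBB2 close to it.

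Secreted and matrix proteins were among the 12 largest upward differences of genes whose M-BM mean reached the median level. IL24 (chr1:206897443-206904139 in GRCh38) encodes a cytokine of the interleukin-10 family. Its value was 101.0, 51.8, 182.9 and 136.1 in M-BM and 0.265, 0.937 and 0.109 in Pa. The difference was 6.27 ± 0.46, and every M-BM library lay more than an order of magnitude above every Pa library. SPARC (chr5:151661096-151686915) encodes a collagen-binding matricellular protein. It stood at 113.3, 186.4, 89 and 67.2 in M-BM and at 0.463, 0.187 and 0.655 in Pa, a difference of 6.23 ± 0.34. Both genes were low in each parental library and did not overlap between the groups. The hexosamine pathway enzyme GFPT2 (4.49 ± 0.31) and the uridine phosphorylase UPP1 (3.51 ± 0.17) were also among the 12 largest upward differences.

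Of 19 matrix protein genes that passed the filter, 9 were called higher and 7 lower, with a median of 0.06, so that calls went both ways. Without M-BM 4 the counts were 9 and 5. Fibronectin (FN1) was at 1834, 1546, 1380 and 1112 in M-BM and 73.9, 98.8 and 121.0 in Pa, a difference of 3.90 ± 0.25. THBS1, which encodes thrombospondin-1, a matrix glycoprotein that activates latent TGF-beta, was at 2050, 1253, 1357 and 1114 in M-BM against 98.4, 100.7 and 96.3 in Pa. The laminin chains LAMA3 (1.14) and LAMB3 (1.31) were also called higher, as were COL17A1 (1.38), COL4A1 (3.61) and tenascin-C (TNC, 1.94). Called lower were LAMB2 (-1.55) and LAMA5 (-1.01), chains of other laminins, the basement membrane proteoglycans HSPG2 (-1.68) and AGRN (-1.07), and COL12A1 (-1.53), COL4A5 (-1.47) and COL18A1 (-1.25). Among 17 integrins and cadherins, the laminin and collagen receptor subunits ITGA2 (1.46 ± 0.09) and ITGA6 (1.10 ± 0.09) were called higher, while ITGB4 (-1.03) and the desmosomal cadherin DSC2 (-1.17) were called lower. Without 1 library the calls were lost for DSC2 (-0.91 without M-BM 1), ITGB4 (-0.95 without M-BM 1, -0.98 without M-BM 4), AGRN (-0.94 without Pa 3, -0.99 without M-BM 4) and LAMA5 (-0.84 without M-BM 4, -0.92 without M-BM 3, -0.87 without Pa 3).

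Plasmin cleaves matrix and adhesion molecules, and PLAT (tissue plasminogen activator) makes it from plasminogen. PLAT was at 15.2, 9.22, 24.6 and 50.4 in M-BM and 243.9, 410.6 and 243.7 in Pa, a difference of -3.75 ± 0.56. PLAT was thus lower in every M-BM library than in any Pa library. L1CAM, an adhesion molecule that lets tumour cells spread along vessels, was at 34.1, 83.7, 30.5 and 23.1 in M-BM against 15.2, 11.7 and 12.8 in Pa. Its difference was 1.45 ± 0.41, with M-BM 2 the highest library. On the list of brain colonisation and plasminogen genes, 16 passed, 7 were called higher and 6 lower, with a median of 0.43. SERPINE2 (2.07), MMP2 (2.20), FSCN1 (1.84), NTRK2 (1.88) and RELN (2.08) were higher members. PTGS2, the inducible prostaglandin synthase, was at 1.18, 0.542, 0.487 and 2.19 in M-BM against 28.3, 32.5 and 51.3 in Pa, and the lysosomal protease CTSS, the protocadherin PCDH7 and the connexin GJB2 also lay lower (-2.61, -2.24 and -1.38).

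Receptors and kinases of growth signalling were called in both directions. AXL (chr19:41219223-41261766), a receptor tyrosine kinase for the ligand GAS6, was at 778.1, 478.3, 358.1 and 271.8 in M-BM and 4.57, 9.18 and 5.08 in Pa, a difference of 5.96 ± 0.42. ERBB2 itself (chr17:39688094-39728658) was at 2801, 4184, 2989 and 2996 in M-BM and 4881, 4925 and 4929 in Pa. All M-BM values lay below all Pa values, but the difference of -0.62 ± 0.13 was under 2-fold and ERBB2 was not called. Its neighbour in the amplified segment, the adaptor GRB7, was called higher at 1988, 4287, 3175 and 2417 in M-BM against 1232, 1240 and 1236 in Pa. Of the 15 genes of that segment that passed, GRB7 was the only one called higher and PPP1R1B (-2.44) the only one called lower, and the median was 0.19. ERBB3, the kinase-impaired partner of HER2, was at 47.3, 55.8, 43.6 and 60.5 in M-BM against 160.4, 162.0 and 179.7 in Pa, a difference of -1.68 ± 0.12. LRIG1, which promotes degradation of ERBB receptors, was at 5.27, 10.9, 7.44 and 8.8 in M-BM against 61.9, 58 and 60.2 in Pa. EGFR was not called (0.36 ± 0.13).

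The PI3K and AKT pathway showed 3 calls among 20 genes, with a median of -0.05. PIK3R1, which encodes the p85-alpha regulatory subunit of PI3K, was at 26.6, 26.6, 32.5 and 37.5 in M-BM and 393.5, 409.8 and 467.3 in Pa, a difference of -3.75 ± 0.14. The regulatory subunit PIK3R3 was lower as well (-1.94). The AP-1, KLF and ERK-response list had calls in both directions. The AP-1 subunit FOSL1 stood at 151.9, 93, 187.6 and 132.8 in M-BM and 3.44, 3.87 and 3.55 in Pa, a difference of 4.90 ± 0.21. The ERK phosphatases DUSP4, DUSP5 and DUSP6 differed by 1.04, 2.07 and 2.14, the feedback inhibitor SPRY4 by 1.80 and the ETS factors ETV4 and ETV5 by 1.62 and 2.23. FOS (-1.45) and JUND, 2 other AP-1 subunits, were called lower with KLF5, so that 8 of its 27 genes were called higher and 3 lower, at a median of 0.03. The AP-1 motif TGANTCA, searched on both strands in the 250 bases before the start site, was present in 27 of 618 promoters of genes called higher (4.37%), in 3.55% of the promoters of all genes that passed the filter and in 6.6% of all 27305 RefSeq promoters. Of 20 genes on the YAP and TEAD list, 7 were called higher and 1 lower, with a median of 0.43. The higher ones included F3, which encodes tissue factor (2.41 ± 0.26), AMOTL2 (1.43), CYR61 (1.34) and CTGF (1.02). The lower one was TEAD2 (-2.01), a TEAD factor itself and not a target. Calls near the limit were lost for DUSP4 without Pa 3 (0.85), M-BM 1 (0.98) or M-BM 2 (0.97), for CTGF without M-BM 1 (0.84), M-BM 2 (0.93) or Pa 3 (0.98), and for KLF5 without M-BM 2 (-0.90), M-BM 3 (-0.96) or Pa 3 (-0.97).

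**Figure D2:**
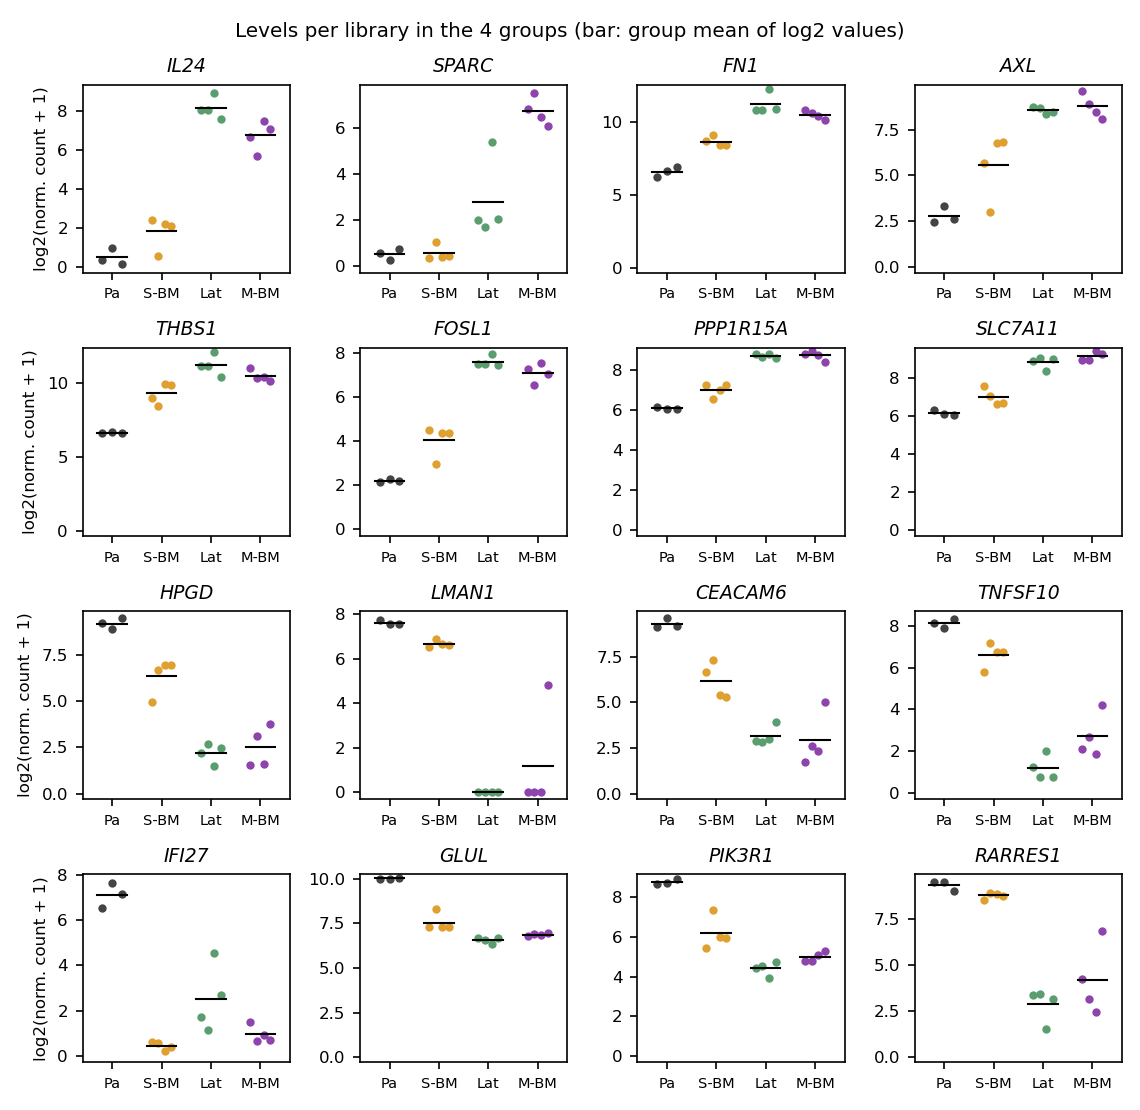
Log2(normalized count + 1) of 16 genes in each library of Pa, S-BM, Lat and M-BM (points), with the mean per group (bars). IL24, AXL and FOSL1 are low in all Pa libraries and high in all M-BM libraries, while LMAN1, CEACAM6 and RARRES1 show M-BM 4 apart from M-BM 1 to 3; Pa comes from a separate table.

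In the integrated stress response list, 14 of 31 genes were called higher in M-BM and 1 lower. In this response, phosphorylation of the translation factor eIF2-alpha raises ATF4, which switches on amino acid transporters, synthetases and the phosphatase subunit PPP1R15A that ends the response. SLC7A11 (chr4:138164097-138242349), the cystine-glutamate exchanger subunit xCT, was at 498.0, 499.1, 687.3 and 605.2 in M-BM and 78.5, 68.4 and 66.3 in Pa. Its difference was 2.98 ± 0.14, and the groups were well separated. SLC3A2, the heavy chain that carries SLC7A11 to the membrane, was 1231 ± 180.1 in M-BM and 344.5 ± 30.6 in Pa (mean ± SD, n = 4 and n = 3). PPP1R15A was at 451.3, 504.9, 440.1 and 341.2 in M-BM against 69.9, 66.5 and 65.3 in Pa, a difference of 2.66 ± 0.12. The median of the 31 genes was 0.96. Other members called higher included STC2 (2.19 ± 0.21), DDIT3 (1.98), SLC7A5 (1.68), TRIB3 (1.41), PSAT1 (1.32) and ATF4 itself (1.20). VLDLR was the member called lower (-1.21).

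Promoters of the 2 called members that hold the amino acid response motif TGATGNAA are shown because ATF4 acts through elements of this kind. Each run is the 250 bases before the RefSeq start site (GRCh38.p14), written 5′ to 3′ on the strand of the gene, with the motif in capitals on whichever strand it lies. ASNS, asparagine synthetase (chr7:97872409-97872658, minus strand), has it 68 bases before the start site, and CHAC1, a glutathione-degrading enzyme (chr15:40953221-40953470, plus strand), 209 bases before it.
ASNS: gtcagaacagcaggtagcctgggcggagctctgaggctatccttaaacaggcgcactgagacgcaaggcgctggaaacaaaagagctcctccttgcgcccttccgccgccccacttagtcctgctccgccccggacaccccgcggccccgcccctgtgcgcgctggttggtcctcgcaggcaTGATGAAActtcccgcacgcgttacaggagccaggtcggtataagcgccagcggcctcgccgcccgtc
CHAC1: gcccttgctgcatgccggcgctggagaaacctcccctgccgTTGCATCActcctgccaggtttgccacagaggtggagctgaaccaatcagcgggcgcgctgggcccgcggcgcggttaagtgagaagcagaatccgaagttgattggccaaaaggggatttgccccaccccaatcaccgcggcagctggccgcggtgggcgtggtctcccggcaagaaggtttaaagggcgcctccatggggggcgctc
ASNS was 389.4 ± 13.9 in M-BM and 152.4 ± 11.3 in Pa (mean ± SD, n = 4 and n = 3), and CHAC1 was 32.3 ± 3.93 and 11.4 ± 3.34. The motif occurred in 2 of 12 called-higher members with a promoter in the table (16.7%), in 2 of 11 other members that passed (18.2%) and in 3.19% of all promoters. A match is a description of letters and not a measured binding site.

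Of 20 glutamine and aspartate genes, 5 were called higher and 2 lower, at a median of 0.14. GLUL, glutamine synthetase, which makes glutamine from glutamate, was at 109.0, 117.9, 112.5 and 122.9 in M-BM and 1025, 1039 and 1078 in Pa. Its difference was -3.17 ± 0.04. GLUL RNA was thus lower in each M-BM library than in any Pa library. GPT2, a mitochondrial alanine transaminase, was higher (1.69 ± 0.12), and ASS1, which consumes aspartate to make argininosuccinate, was at 337.5, 382.1, 134.8 and 245.7 in M-BM against 733.0, 772.2 and 803.3 in Pa. Of 19 cystine and glutathione genes, 5 were called higher and 4 lower, at a median of 0.04; the lower ones were GGT1 (-2.68), MGST2 (-2.67), GSTM3 (-1.99) and GPX2 (-1.41). NRF2, a transcription factor of the oxidative stress response, has partly the same targets: of 25, 5 were called higher and 3 lower, at a median of 0.16. ABCC2, a conjugate exporter, was at 24.3, 49.8, 65.2 and 48.5 in M-BM against 3.11, 3.44 and 5.51 in Pa, and OSGIN1 at 35.9, 49, 67.7 and 40 against 7.41, 8.99 and 6.77. TXNRD1 (1.48) and SRXN1 (1.46) were higher too, whereas the aldo-keto reductases AKR1B10 (-1.77), AKR1C3 (-2.44) and AKR1C1 (-2.09) were lower. AKR1C1 spread widely over M-BM, at 14.9, 4.16, 55.9 and 57.7, and its difference was -1.38 without M-BM 2; the AKR1C genes are near-identical copies and their counts may share reads. The multidrug transporter ABCG2 was at 55.9, 57.3, 74.5 and 54.7 in M-BM against 7.21, 6.68 and 3.38 in Pa, a difference of 3.23 ± 0.30.

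Central energy metabolism showed few calls. None of 39 respiratory chain genes, none of 9 pentose phosphate genes, 2 of 24 glycolysis and lactate genes and 3 of 24 tricarboxylic acid cycle genes were called, with medians between -0.20 and 0.01, against 19.3% of all genes called. The glucose transporter SLC2A1 (0.01 ± 0.06), lactate dehydrogenase LDHA (0.42 ± 0.12) and the lactate exporter SLC16A3 (0.10 ± 0.18) were not called. Both calls of the glycolysis and lactate list were lower: the lactate and pyruvate transporter SLC16A7 was at 0.492, 0.226, 0.292 and 0.428 in M-BM against 19.8, 31.6 and 18.9 in Pa, and the glycolytic regulator PFKFB3 at 138.4, 172.6, 173.2 and 160.6 against 363.8, 407.2 and 392.1. The cycle genes called lower were the isocitrate dehydrogenases IDH1 (-1.16 ± 0.09) and IDH2 (-1.23 ± 0.10) and the succinyl-CoA ligase subunit SUCLG2 (-1.31 ± 0.13). DNM1L, the GTPase that divides mitochondria, was the 1 call among 12 fission and fusion genes, at 137.3, 141.8, 141.4 and 131.1 in M-BM and 56.9, 57.7 and 54.4 in Pa. Its difference was small but tight, 1.28 ± 0.04.

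Lipid genes that were called lay mostly lower. Cholesterol synthesis runs from HMGCS1, an early enzyme, to DHCR7, which reduces a late sterol intermediate. Of 22 genes of the pathway that passed, 12 were called lower and none higher, and the median was -1.23. LSS, which closes the sterol rings, was at 47.9, 32.2, 23.8 and 28.7 in M-BM against 141.7, 130.0 and 152.4 in Pa. DHCR7 (-1.84 ± 0.13), HMGCS1 (-1.47) and INSIG1 (-1.74) lay lower as well, while the regulator SREBF2 was not called (-0.51 ± 0.12). A sterol-response motif, TCAC, any base and CCAC, was found in none of 8 promoters of the lower members and in 1 of 8 of the other members, that of SREBF2, against 0.875% of all promoters. In fatty acid synthesis and desaturation, 7 of 17 were called lower and 3 higher. SCD, the main stearoyl-CoA desaturase, was at 435.2, 251.6, 295.7 and 526.5 in M-BM and 2335, 1996 and 2626 in Pa, a difference of -2.67 ± 0.27. SCD5 (-2.04), FASN (-1.96), ACLY (-1.74), SREBF1 (-1.63) and ACACA (-1.38) were lower with it. By contrast the desaturase FADS3 was at 45, 45.5, 38.7 and 29.5 in M-BM against 5.03, 4.5 and 6.17 in Pa, and FADS1 (1.65) and the elongase ELOVL6 (1.43) were higher. Fatty acid oxidation had 9 of 26 genes lower and 1 higher, at a median of -0.56. Lower were the carnitine acetyltransferase CRAT (-2.29 ± 0.14), the acyl-CoA synthetase ACSL5 (-2.50 ± 0.29), CROT (-1.74), HADH (-1.48) and ACADM (-1.23), whereas CPT1A, the entry step of mitochondria, was not called (0.35 ± 0.15). The exception was the coactivator PPARGC1A, at 3.89, 11.4, 16.2 and 12.1 in M-BM and with 1 read in the 3 Pa libraries together.

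Among growth genes, targets of MYC in ribosome biogenesis were called higher in 14 of 29 cases and lower in none, at a median of 0.99; without M-BM 4 the count was 11. ODC1, the rate-limiting enzyme of polyamine synthesis, was at 177.9, 163.5, 163.8 and 144.5 in M-BM and 36.1, 33.3 and 30.6 in Pa, a difference of 2.25 ± 0.09. LYAR (1.90 ± 0.14), RRP12 (1.51 ± 0.09), RRN3 (1.44) and NOP2 (1.37) followed, and MYC itself was 260.3 ± 37 in M-BM and 123.9 ± 2.55 in Pa (mean ± SD, n = 4 and n = 3). Many of these calls lay just past the 2-fold limit, among them WDR12 (1.00), NOP56 (1.01) and NOLC1 (1.01). Each of these 3 lost its call without any of several single libraries, down to 0.94 for WDR12 without Pa 3, 0.94 for NOP56 without M-BM 3 and 0.95 for NOLC1 without M-BM 3, and MYC lost it without M-BM 1 (0.97). The E-box CACGTG was found on no promoter of 11 called-higher members and on 2 of 13 other members (15.4%), against 9.2% of promoters of genes that passed the filter and 6.49% of all promoters. Cytosolic ribosomal proteins had 1 call among 39, RPL13 (1.08 ± 0.10), and their median was 0.21. Of 40 replication and mitosis genes none was called higher and 2 lower, the mitotic kinesin KIF20A (-1.46 ± 0.13) and thymidylate synthase TYMS (-1.13 ± 0.18), at a median of 0.11, and the proliferation marker MKI67 was not called (-0.37 ± 0.08). CDKN1A, which encodes the cell-cycle inhibitor p21, was at 269.1, 341.5, 393.4 and 325.9 in M-BM and 76.8, 70 and 82.5 in Pa, a difference of 2.10 ± 0.13. The inhibitors CDKN2A (-1.68) and CDKN2B (-1.98) were lower. BMP7, a secreted ligand linked to dormancy of disseminated cells, was at 19.7, 41.5, 61.7 and 42.4 in M-BM against 4.9, 5 and 8.52 in Pa.

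**Figure D3:**
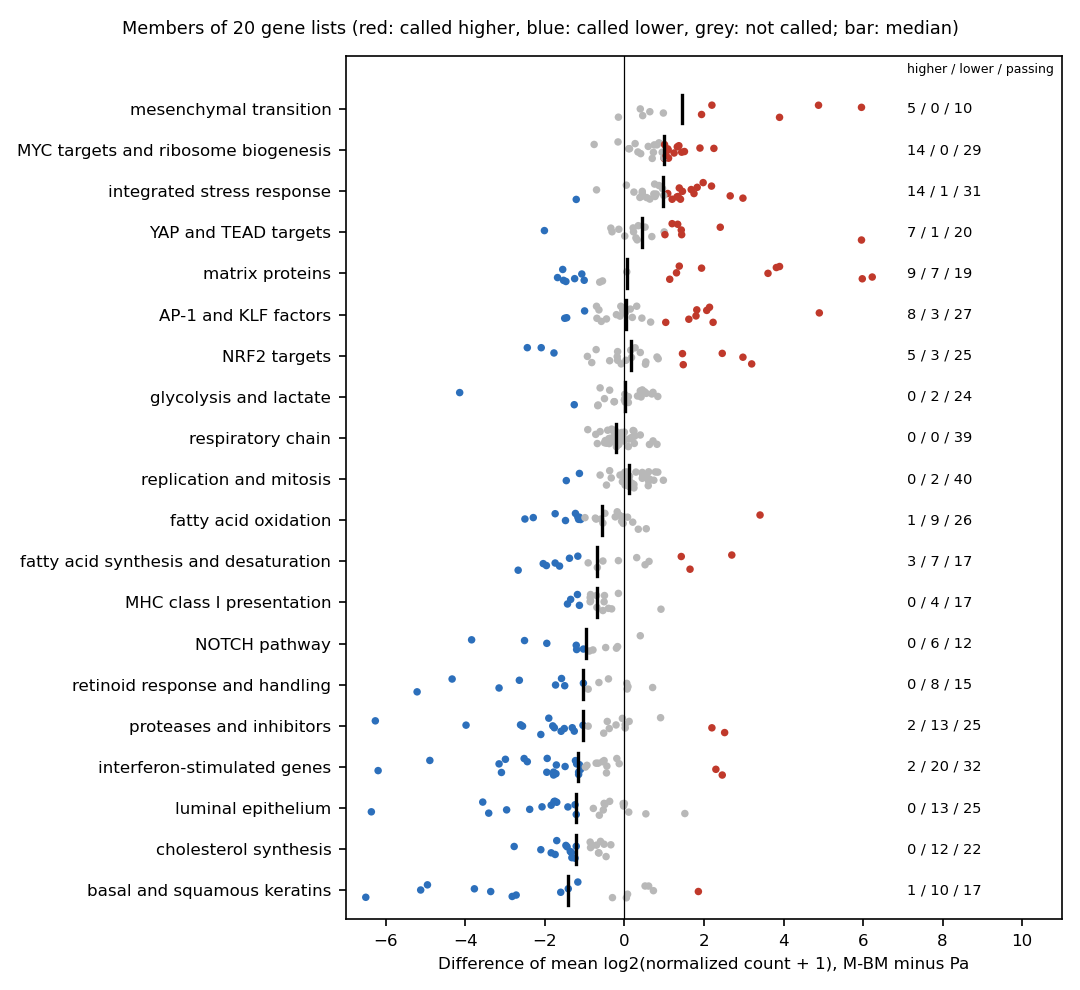
Difference of mean log2(normalized count + 1), M-BM minus Pa, for each member of 20 gene lists that passed the filter (points; red called higher, blue called lower, grey not called), with the list median (bar) and the counts of calls at the right. Medians run from -1.41 for basal and squamous keratins to 1.46 for mesenchymal transition, and respiratory chain genes hold no call.

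Epithelial identity genes were predominantly lower. Of 25 luminal genes that passed, 13 were called lower and none higher, at a median of -1.21. CEACAM6, a cell-surface adhesion glycoprotein, was at 2.36, 5.2, 4.04 and 31.2 in M-BM and 549.2, 778.0 and 568.7 in Pa. Its difference was -6.36 ± 0.73, and -7.05 without M-BM 4, the highest of the M-BM libraries. The mucin MUC1 was at 2.26, 1.94, 2.14 and 16.7 in M-BM against 65.8, 48.6 and 53.6 in Pa, again with M-BM 4 apart; without that library the difference was -4.18 in place of -3.56. TSPAN1 (-3.41 ± 0.49), AGR2 (-2.96), the ETS factor EHF (-2.38), the luminal transcription factors FOXA1 (-1.77) and GATA3 (-1.70), and KRT8 (-1.75) were lower too. E-cadherin (CDH1) was at 414.9, 469.2, 504.2 and 607.8 in M-BM and 835.0, 826.7 and 891.7 in Pa, without overlap but under 2-fold. EPCAM was not called (-0.37 ± 0.16).

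Basal and squamous keratins and their companions were called lower in 10 and higher in 1 of 17 cases, at a median of -1.41. KRT4 was at 0.0985, 0.0452, 0 and 2.85 in M-BM and 118.8, 106.7 and 172.9 in Pa, a difference of -6.50 ± 0.52. KRT13 was at 19.1, 2.08, 1.46 and 2.24 in M-BM against 127.6, 116.4 and 289.4 in Pa, with M-BM 1 apart, and its difference of -5.12 became -5.82 without that library. The abundant keratin KRT15 (-3.36 ± 0.34) and the calcium-binding proteins S100A8 (-4.95 ± 0.58), S100A7 (-3.77 ± 0.50) and S100A9 (-2.72 ± 0.32) lay lower. KRT80 was the keratin called higher (1.86). Keratin genes are near-identical in part, so reads may be shared among them. Mesenchymal genes were called higher in 5 of 10 cases, at a median of 1.46, AXL, FN1, TNC and MMP2 among them. Vimentin (VIM), the usual marker of that state, was at 46.2, 4.79, 31.7 and 25.2 in M-BM and 11.9, 13.8 and 20.5 in Pa. The groups overlapped because of M-BM 2, and the difference of 0.46 ± 0.70 was 1.10 without it. It was 0.09 without M-BM 1, 0.27 without M-BM 3 and 0.37 without M-BM 4, so the value depended on single libraries in both directions.

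Developmental signalling genes with calls were mostly lower. In the NOTCH pathway, in which ligands of the JAG and DLL families activate NOTCH receptors to induce HES factors, 6 of 12 were called lower and none higher, at a median of -0.95. The receptor NOTCH3 was at 16.4, 25.4, 18.1 and 26.2 in M-BM and 108.8, 116.2 and 154.5 in Pa, a difference of -2.51 ± 0.22. The ligand JAG2 (-1.21), the coactivator MAML2 (-1.95 ± 0.19) and the targets HES1 (-1.03) and HES2 (-3.84 ± 0.41) lay lower, while the receptors NOTCH1 (-0.47 ± 0.19) and NOTCH2 (-0.88 ± 0.08) were not called. SOX2, a pluripotency factor, was at 0.246, 1.27, 0.195 and 0.666 in M-BM and 26.9, 29.5 and 34.8 in Pa, a difference of -4.34 ± 0.24. SOX4 was at 146.1, 132.6, 105.7 and 228.4 in M-BM against 918.7, 934.1 and 1047 in Pa. The ligand WNT5A stood at 0.345, 0.542, 1.41 and 2.24 in M-BM and 53.3, 56.6 and 56.5 in Pa, while SOX9 (0.90 ± 0.13) and the WNT inhibitor DKK1 (-0.50 ± 0.24) were not called. TGF-beta pathway genes went both ways, with TGFBR1 (1.02) and INHBA (1.58) higher and the receptor BMPR2 (-1.64 ± 0.17) and the ligand TGFB1 (-1.61 ± 0.22) lower. Calls were lost for HES1 (-0.93 without Pa 3, -0.99 without M-BM 3) and TGFBR1 (0.97 without Pa 2, 0.99 without M-BM 3).

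Retinoid genes with calls were lower as well. RDH10 and its relatives oxidise retinol in a step on the way to retinoic acid, which is carried by CRABP2 and induces RARRES1 and RARRES3. Of 15 that passed, 8 were called lower and none higher, at a median of -1.03. RARRES1 was at 17.8, 7.91, 4.48 and 116.4 in M-BM and 748.2, 745.2 and 532.6 in Pa. Its difference of -5.21 ± 0.98 became -6.10 without M-BM 4. RARRES3 was at 11.3, 16.8, 7.1 and 38.8 in M-BM against 331.4, 349.7 and 303.2 in Pa, a difference of -4.33 ± 0.49. CRABP2 (-2.64), STRA6 (-1.73), DHRS3 (-1.58), RDH10 and DHRS9 (-3.15 ± 0.74, and -3.76 without M-BM 4) were lower too. Among secreted and lysosomal proteases and their inhibitors, 13 of 25 were called lower and 2 higher, at a median of -1.04. The collagenase MMP13 was at 0.886, 2.39, 3.7 and 3.52 in M-BM and 245.1, 132.5 and 544.0 in Pa, and MMP7 at 11.2, 5.56, 4.48 and 8.99 against 100.2, 107.6 and 189.2. The cathepsins CTSC (-2.56), CTSS (-2.61), CTSD (-1.80) and CTSH (-1.26) were lower, whereas MMP2 (2.20) and the cystatin CST6 (2.52) were higher.

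Several of the largest downward differences belonged to genes of other roles. HPGD (chr4:174490175-174522893), the enzyme that inactivates prostaglandins, was at 1.87, 7.73, 2.04 and 12.4 in M-BM and 587.6, 474.4 and 705.7 in Pa, a difference of -6.69 ± 0.58. LMAN1 (chr18:59327823-59359265), a cargo receptor that carries glycoproteins such as clotting factors out of the endoplasmic reticulum, had no read in M-BM 1, 2 and 3. It was at 0, 0, 0 and 26.8 in M-BM and 214.1, 187.5 and 186.5 in Pa, a difference of -6.42 ± 1.20 and of -7.62 without M-BM 4. The linker histone gene HIST1H1B was at 0.0492, 0, 0.195 and 35.1 in M-BM and 456.0, 508.5 and 344.0 in Pa, a difference of -7.38 ± 1.28 and of -8.64 without M-BM 4. It was the 1 call among 18 clustered histone genes, whose median was -0.32; their reads may be shared among copies, and their RNA mostly lacks a poly(A) tail. The copper-carrying plasma protein CP was at 23.9, 4.79, 1.8 and 30.2 in M-BM against 431.7, 336.8 and 456.0 in Pa, and its difference of -5.26 ± 0.85 was -4.62 without M-BM 3. CYP4B1, a fatty acid hydroxylase, was at 0.739, 1.94, 0.341 and 3.52 in M-BM against 178.8, 147.5 and 159.0 in Pa. CEACAM5 (-5.91 ± 0.29), the selenium carrier SEPP1 (-5.87 ± 0.49), IGFBP5 (-5.78 ± 0.67) and MXRA5 (-5.67 ± 0.66, and -6.27 without M-BM 4) were also among the 12 largest downward differences by the same level rule, which CP was not.

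Interferon-stimulated genes were mostly lower. Type I interferon acts through a complex that includes STAT2 and IRF9 that binds the interferon-stimulated response element, and its targets include the RNA sensors of the OAS family and the IFIT proteins that hold back foreign RNA. Of 32 that passed, 20 were called lower and 2 higher, at a median of -1.18. IFI27 (chr14:94105894-94116690), a mitochondrial and nuclear-envelope protein, was at 1.82, 0.587, 0.876 and 0.618 in M-BM and 92, 202.2 and 144.0 in Pa, a difference of -6.19 ± 0.38. OAS2 was at 1.28, 1.67, 2.14 and 1.95 in M-BM against 59.3, 106.6 and 82.3 in Pa. SAMD9L (-3.15 ± 0.28), OAS1 (-3.09), IFI6 (-2.99), GBP2 (-2.52) and IFITM1 (-1.78) were lower, and so were the factors IRF9 (-1.72) and STAT2 (-1.15). The exceptions, named after their values were seen, were HERC5, a ligase that attaches the modifier ISG15, at 41.2 ± 5.08 in M-BM and 6.87 ± 2.39 in Pa (mean ± SD, n = 4 and n = 3), and the helicase DDX60L at 147.0 ± 30.8 and 28.6 ± 2.67.

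The promoters of IFI27, IFIT1 and IFIT3, all called lower, and of HERC5, called higher, are shown because they hold the same response letters and the genes lay on opposite sides. Each run is the 250 bases before the RefSeq start site (GRCh38.p14), 5′ to 3′ on the strand of the gene. For IFI27 the start site used lies inside the gene span printed above, not at its outer edge. Capitals mark matches, on either strand, to a response-element core of GAAA, any 2 bases and GAAA again; matches may overlap. The windows are chr14:94110486-94110735, plus strand; chr10:89392373-89392622, plus strand; chr10:89327747-89327996, plus strand; and chr4:88456869-88457118, plus strand.
IFI27: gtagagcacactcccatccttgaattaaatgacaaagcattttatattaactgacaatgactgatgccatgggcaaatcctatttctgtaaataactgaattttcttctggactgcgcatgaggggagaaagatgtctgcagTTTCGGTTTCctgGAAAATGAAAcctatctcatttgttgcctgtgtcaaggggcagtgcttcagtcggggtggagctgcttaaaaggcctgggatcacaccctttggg
IFIT1: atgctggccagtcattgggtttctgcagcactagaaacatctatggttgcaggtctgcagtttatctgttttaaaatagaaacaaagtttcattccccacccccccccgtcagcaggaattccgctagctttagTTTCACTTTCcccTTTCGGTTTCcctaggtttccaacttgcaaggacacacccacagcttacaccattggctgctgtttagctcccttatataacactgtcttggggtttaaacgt
IFIT3: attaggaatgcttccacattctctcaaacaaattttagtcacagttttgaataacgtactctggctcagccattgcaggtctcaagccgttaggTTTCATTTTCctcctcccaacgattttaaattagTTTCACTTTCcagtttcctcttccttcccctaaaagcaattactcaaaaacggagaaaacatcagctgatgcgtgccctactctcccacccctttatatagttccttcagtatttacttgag
HERC5: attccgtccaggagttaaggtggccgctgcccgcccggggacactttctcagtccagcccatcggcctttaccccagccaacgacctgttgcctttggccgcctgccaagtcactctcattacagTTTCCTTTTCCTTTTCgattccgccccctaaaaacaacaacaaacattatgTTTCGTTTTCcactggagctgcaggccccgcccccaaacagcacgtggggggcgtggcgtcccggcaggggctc
The motif was found in 10 of 16 lower members with a promoter in the table (62.5%) and in 7 of 11 other members that passed (63.6%), against 3.07% of all 27305 promoters and 2.34% of those of genes that passed the filter. The shares of lower and of other members were close, so the letters did not set lower members apart within these windows.

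Genes by which immune cells see or kill a tumour cell were called in both directions. TNFSF10, which encodes the death ligand TRAIL, was at 3.3, 5.33, 2.63 and 17.8 in M-BM and 282.8, 237.0 and 323.9 in Pa, a difference of -5.41 ± 0.55. LGALS9, galectin-9, was at 1.33, 0.678, 1.02 and 2 in M-BM against 33.2, 39.8 and 33.7 in Pa, and the checkpoint ligand VTCN1 at 6.84, 14.6, 13.2 and 23.1 against 141.5, 152.6 and 199.9. CD55, which protects cells from complement, was called higher at 230.5, 239.4, 268.1 and 231.6 in M-BM against 59, 52.6 and 55.5 in Pa, as was PVR (1.41 ± 0.19), a ligand of NK-cell receptors. In class I antigen presentation 4 of 17 were called lower and none higher, at a median of -0.70: PSMB10 (-1.43 ± 0.11), CALR (-1.35 ± 0.09), TAPBP (-1.18 ± 0.08) and PSME1 (-1.13). HLA-B (-0.50 ± 0.06), HLA-C (-0.86 ± 0.08) and B2M (-0.85 ± 0.08) were not called; the HLA genes are similar enough to share reads. Of the cytokine genes, LIF was at 56.8 ± 11.2 in M-BM and 6.46 ± 1.01 in Pa (mean ± SD, n = 4 and n = 3). TNFAIP3, an inhibitor of NF-kappaB signalling, was at 82.9, 34.2, 44.3 and 41 in M-BM against 3.51, 3.5 and 3.17 in Pa. The lists of NK-cell ligands, death ligands and cytokines had 2 higher and 3 lower of 15, 2 higher and 3 lower of 19, and 4 higher and 2 lower of 11, beside 19.3% of all genes called in either direction.

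In 6 genes called higher, no Pa library had more than 3 reads. Besides PPARGC1A these included IL1RAPL1, an interleukin-1 receptor family member, at 32.2, 31.9, 93.9 and 67.1 in M-BM with 3 Pa reads in all; ADAM12, a disintegrin metalloprotease, at 31.8, 27.5, 21.9 and 17.8; ZDHHC2, a palmitoyltransferase, at 30.6, 36.5, 16.3 and 13.7 with 3 Pa reads in all; and SLC16A14, a monocarboxylate transporter family member. SLC16A14 had no read in any Pa library and was at 4.38, 15.2, 14.9 and 11.6 in M-BM, at least 192-fold higher against a floor of 3 reads over the Pa group, and its 95% counting interval against 0 reads had a lower bound of 156. The lower bounds of the 95% counting intervals of the ratio were 315 for IL1RAPL1, 137 for ZDHHC2 and 96.9 for PPARGC1A. In the other direction the fucosyltransferase FUT2 alone was at 3 reads or fewer in every M-BM library, at 0.0492, 0.136, 0.0487 and 0.0476 against 12.8, 13.7 and 12.6 in Pa.

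The M-BM libraries did not all lie at the same distance from Pa. M-BM 4 was the nearest of the 4 to the parental mean in 45.2% of the genes called higher and 57.5% of those called lower, whereas M-BM 3 was nearest in 3.98% and 4.52%. The median distance over the genes called lower was -1.31 in M-BM 4 and reached -1.61 in M-BM 3, and over those called higher it was 1.44, 1.34, 1.46 and 1.26 in M-BM 1 to 4. The median correlation with the Pa libraries was 0.855 for M-BM 4 and 0.797, 0.814 and 0.796 for M-BM 1 to 3. Without M-BM 4, 847 genes were called higher and 1166 lower. Largest in spread among the 4 libraries, apart from genes described above, were the glycosyltransferases GCNT1 at 24.9, 38.2, 3.45 and 50 and B3GNT3 at 18.3, 9.44, 0.487 and 13.7, and FAM9C at 0.148, 13.1, 15 and 29.9. Their differences of -3.80, -1.78 and -2.58 were -3.03 and -0.97 without M-BM 3 and -1.57 without M-BM 1, in that order. Markers of other cell types that an M-BM culture could hold were summed per library. The labels do not give the host and the processing notes name only the human genome, so these sums may miss cells of a non-human host. AIF1, which marks microglia, had no read in any of the 7 libraries, whereas TMEM119 had reads in M-BM and none in Pa. Of 8 microglia and macrophage markers, 3 had 3 reads or fewer in every M-BM library and 6 in every Pa library. Summed values of these 8 markers were 17 to 22.5 in M-BM and 17.6 to 20.9 in Pa. Summed values of 7 astrocyte markers were 35.6 to 82 in M-BM and 318 to 432 in Pa, nearly all from SLC1A3 (-2.75), 5 neuron markers 34 to 45.7 and 49.6 to 63.3, and 7 oligodendrocyte markers 168 to 231 and 310 to 323. Fibroblast markers summed to 21.4 to 39.4 and 17.9 to 25.2, and endothelial markers to 4.77 to 12.1 and 20.6 to 28.4. Of 7 fibroblast markers, 3 had 3 reads or fewer in every M-BM library and 5 in every Pa library. For oligodendrocyte markers these counts were 2 and 3, and for astrocyte, endothelial and neuron markers they were equal between groups. Among all these markers, 2 of neurons, 2 of oligodendrocytes and 1 of each other type passed the filter.

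**Figure D4:**
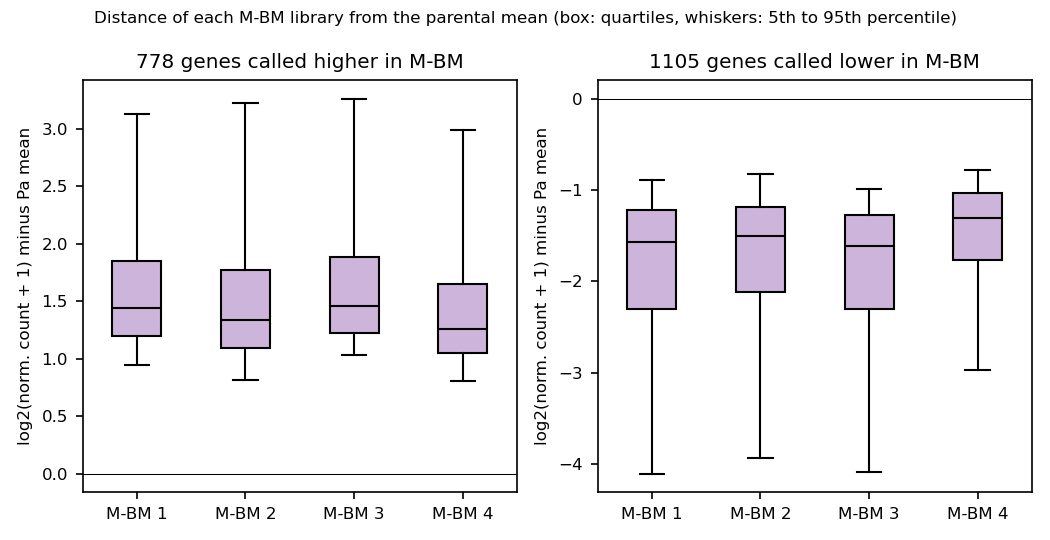
Distance of each M-BM library from the mean of the 3 Pa libraries, in log2(normalized count + 1), for the 778 genes called higher (left) and the 1105 called lower (right); boxes show quartiles and whiskers the 5th to 95th percentile over genes. M-BM 4 has the shortest median distance in both panels, 1.26 and -1.31.

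The other metastatic groups place M-BM within the series. M-BM stands in the same table as S-BM and Lat, so limma could test it against either. M-BM differed from S-BM in 5084 of 9646 genes (52.7%), 2597 higher (26.9%) and 2487 lower (25.8%), and from Lat in 14 (0.145%), 9 higher (0.0933%) and 5 lower (0.0518%). S-BM 3 and 4 had ERBB2 values of 353.1 and 367.3, against 4109 and 4642 in S-BM 1 and 2; without them M-BM differed from S-BM in 4409 genes. The p-values measure the spread between these libraries, which may be technical. In an example picked after its values were seen, THBS1 was at 492.6, 344.8, 945.9 and 931.1 in S-BM. In Lat it was at 2235, 2225, 4294 and 1355. S-BM 3 and 4, and Lat 1 and 2, thus lay close together in this gene. The fit counts each library as separate, and whether such libraries share a source was not tested. The median correlation across genes between libraries was 0.979 for M-BM with Lat, 0.885 for M-BM with S-BM, 0.926 for S-BM with Pa and 0.792 for Lat with Pa.

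Against S-BM, the test was made gene by gene and no group was tested as such; counts are to be read against 26.9% of all genes higher and 25.8% lower. Of 31 integrated stress response genes 22 were higher in M-BM and 2 lower, and without S-BM 3 and 4 the counts were 18 and 2. SLC7A11 was higher by 2.16 (limma adjusted p = 4.89e-06), with S-BM at 194.0, 129.9, 98 and 101.7. Of 29 MYC and ribosome biogenesis genes 19 were higher and 2 lower, and of 21 cholesterol synthesis genes none was higher and 13 lower; both pairs of counts were the same without S-BM 3 and 4. Luminal genes were lower in 15 and higher in 3 of 26 cases, retinoid genes lower in 11 and higher in 1 of 15, NOTCH genes lower in 10 and higher in 1 of 12, and interferon-stimulated genes lower in 17 and higher in 2 of 26. Without S-BM 3 and 4 these were 15 and 2, 11 and 2, 8 and 1, and 16 and 3. The AXL difference was 3.20 (limma adjusted p = 0.000896), with S-BM at 50, 7.03, 109.0 and 114.3. LMAN1 differed from S-BM by -5.46 (limma adjusted p = 9.28e-05), with S-BM at 89.6, 117.8, 99 and 95.8 and no read in any Lat library. GLUL was lower than in S-BM by a smaller margin than the one to Pa, -0.69 (limma adjusted p = 0.00753). PIK3R1 differed by -1.18 (limma adjusted p = 0.00567). These 5 gene results passed under each of 16 other settings of the fit.

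Some genes far from Pa in M-BM were also far from Pa in S-BM. COL4A1 was 14.8 ± 7.33 in S-BM and 14.8 ± 5.35 in M-BM (mean ± SD, n = 4 each), with no difference past the threshold (limma adjusted p = 0.875), against 0.249 ± 0.128 in Pa. TNFAIP3 was 32.7 ± 11.7 in S-BM (limma adjusted p = 0.18). IFI27 was 0.352 ± 0.164 in S-BM, below every Pa library as in M-BM, and was not tested between the metastatic groups because it missed their filter. Of the 14 genes that differed from Lat, 12 have gene names and 2 have names turned into dates. SPARC had the largest difference of the 12, 3.96 (limma adjusted p = 0.027), with Lat at 3.03, 2.22, 41.9 and 3.07. Lat 3 was the highest of these and still below all M-BM libraries, but the call was lost under 9 of 15 other settings, with limma adjusted p = 0.115 without Lat 1, 0.117 without Lat 2, 0.0721 without Lat 4, 0.0799 without M-BM 2, 0.0752 without M-BM 3 and 0.06 without M-BM 4. The protocadherin FAT2 followed, at 66.4 ± 23.2 in M-BM and 9.21 ± 3.41 in Lat (mean ± SD, n = 4 each; 2.72, limma adjusted p = 0.000429), but was close to its parental level of 55.4 ± 4.84. The transcription factor KLF13 was 28.8 ± 2.5 in M-BM and 5.78 ± 3.42 in Lat (2.25, limma adjusted p = 0.00123), against 44.3 ± 9.65 in Pa. FAT2 and KLF13 were named after their values were seen, and both passed under each of the 15 other settings. The count of 14 was 3 without Lat 1, 3 without Lat 2, 3 without M-BM 4, 6 without M-BM 3 and 30 without M-BM 1. IL24 (-1.42, limma adjusted p = 0.228), LMAN1 (1.20, limma adjusted p = 0.633) and RARRES1 (1.31, limma adjusted p = 0.531) did not pass. Medians of S-BM and Lat minus Pa share the Pa libraries with M-BM minus Pa: for luminal genes they were -0.44 and -1.28 beside -1.21, for cholesterol synthesis -0.60 and -1.24 beside -1.23, for interferon-stimulated genes -0.52 and -1.33 beside -1.18, for MYC targets 0.44 and 0.97 beside 0.99, and for the integrated stress response 0.41 and 0.79 beside 0.96.

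The share of called genes varied between chromosomes; no test was made of this. On chromosome 22, 22.6% of 234 genes were called higher and 6.84% lower, with a median of 0.30; on chromosome 20 the shares were 13.4% and 4.69%, and on chromosome 16 they were 10.2% and 4.38%. Chromosome 3 had 3.36% higher and 15.3% lower, and chromosome 21 had 4.35% and 16.3%. These shares stand against 7.98% and 11.3% over all genes. Genes were taken as neighbours when consecutive by start among those that passed the filter and have a position. Other genes may therefore lie between neighbours. Runs of 4 or more neighbouring genes, all called in the same direction, were found in 11 places, 5 higher and 6 lower, a number that was not tested. In 6 of these, all of 4 genes, leaving out 1 library took a member under the 2-fold limit and the run below 4 genes. The longest held 7 genes at chr22:50508224-50783636 in GRCh38, from the condensin subunit NCAPH2 to RABL2B, with a median of 1.32. Its highest member was MAPK8IP2, a scaffold of JNK signalling, at 20.8, 21.1, 10 and 6.42 in M-BM against 0.132, 0.437 and 0.437 in Pa. SCO2 overlaps its neighbours NCAPH2 and TYMP, and CHKB lies within the read-through gene CHKB-CPT1B, so unstranded reads may be shared there. A further run on that chromosome, at chr22:37225270-37633564, held RAC2, ELFN2, CARD10, CDC42EP1 and GGA1, with a median of 1.97. CARD10, an activator of NF-kappaB, was at 78.8, 55.5, 55.9 and 41.4 in M-BM and 11.6, 13.7 and 12 in Pa, and the GTPase RAC2 at 61.8, 76.2, 107.1 and 79.2 and 26.5, 23.4 and 25.3.

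The other runs lay on other chromosomes. At chr10:89213572-89414679 the lysosomal acid lipase LIPA and the interferon-stimulated genes IFIT2, IFIT3 and IFIT1 were lower, with a median of -1.72. The span of LIPA contains those of IFIT2, IFIT3 and IFIT1, so unstranded reads may be shared there. IFIT3 was at 16.2, 21.8, 19.9 and 21.5 in M-BM and 63.5, 79.4 and 59.7 in Pa, and LIPA at 39, 48.2, 38.6 and 52 and 145.6, 142.3 and 158.3. At chr12:55966830-56103505 lay CDK2, RAB5B, SUOX and ERBB3, with a median of -1.44. In a run on chromosome 19 the adhesion molecule CEACAM1 and the chemokine CXCL17 differed by -3.67 ± 0.32 and -4.19 ± 0.47, with PAFAH1B3 (-1.64). The run at chr3:31532925-32502852 held the oligosaccharyltransferase STT3B, OSBPL10, GPD1L and CMTM6, which stabilises the checkpoint ligand PD-L1 (-1.33 ± 0.14). Another lower run held KLHL13, WDR44, DOCK11 and IL13RA1 at chrX:117897813-118805228, with a median of -1.53. Higher runs were VEGFC, NEIL3, AGA and DCTD at chr4:176683538-182917611, PAK1IP1, TMEM14C, TMEM14B and SMIM13 at chr6:10690865-11138733, and MDFI, TOMM6, MED20 and BYSL at chr6:41637018-41933046. MED20 and BYSL overlap, so reads may be shared between them too. The lymphangiogenic growth factor VEGFC was at 52.4, 29.7, 45.3 and 37.4 in M-BM and 6.09, 4.75 and 6.66 in Pa, a difference of 2.61 ± 0.21. PAK1IP1 was at 113.1, 85.7, 114.1 and 105.1 against 29.6, 30.6 and 26.8. The members that fell under the limit included IFIT2 (-0.96 without M-BM 1), RAB5B (-0.95 without M-BM 1), TMEM14C (0.98 without M-BM 3, 0.88 without Pa 3), MED20 (0.97 without Pa 3) and DCTD (0.98 without Pa 2), and M-BM 1 had this effect on TMEM14C and DCTD too, at 0.99 each. In all 11 runs the medians of Lat minus Pa and of S-BM minus Pa had the sign of M-BM minus Pa. They ran from -2.80 to 2.20 for Lat and from -1.09 to 0.86 for S-BM, and these differences share the Pa libraries.

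**Figure D5:**
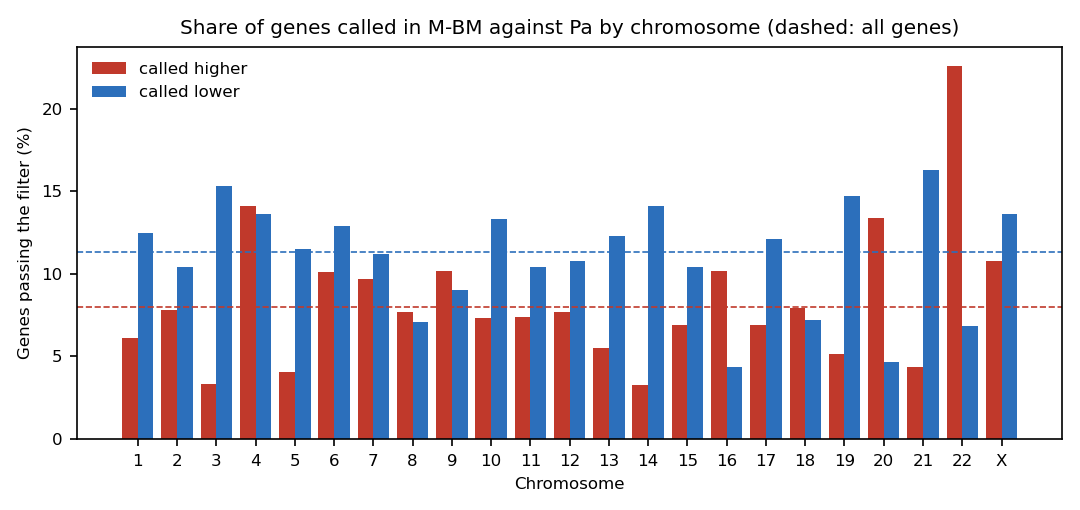
Share of the genes that passed the filter called higher (red) and lower (blue) in M-BM against Pa, in percent, by chromosome; dashed lines mark the shares over all genes, 7.98% and 11.3%. Chromosome 22 has the tallest red bar, 22.6%.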

How the data were processed

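RNA-seq libraries were made with a TruSeq RNA v2 kit, which does not mark strand, per the labels' protocols. The submitters' processing notes name Bowtie 0.12.2 and GRCh38; how reads were counted and normalized was not stated in the labels or file headers. The deposited values are a normalized signal per gene (normalized counts, not raw reads), in 1 table for Pa and another for S-BM, Lat and M-BM. All values in these tables (100%) were whole multiples of a library's smallest step within 0.05 reads, which gave back the reads. Gene names numbered 19845, of which 27 had been turned into dates and are not named. A few genes are not reported here, and list counts include them.

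M-BM and Pa were compared as levels of log2(value + 1), filtered at 10 in 3 of 7 libraries. Tests within the table of 12 libraries used limma 3.58.1 with a mean trend and Benjamini-Hochberg adjustment at 0.05, filtered at 10 in 4 libraries (R 4.3.3), after tests on simulated data. edgeR 4.0.16 and DESeq2 1.42.0 on the recovered reads were alternatives. Promoter windows and gene positions are from RefSeq (GRCh38.p14); of the names, 17545 matched by symbol and 1526 by synonym.

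Genes named were, per direction, the 12 largest differences, the 3 largest per list, fixed genes, genes near 0 in 1 group, the most variable, and genes in runs. Members and lists were chosen with earlier results of these data known.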

Additional observations from a re-analysis of the deposited data

Results flagged for a closer look

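Of 178 genes looked at, 16 (8.99%) had 1 M-BM library whose gap to the nearest of the others, as a share of the group's range, exceeded the 95% critical value of Dixon's test; chance gives such a gap in about 5% of groups, a share that does not apply here because the genes were chosen by their values, some of them, such as HIST1H1B and LMAN1, for their spread among the M-BM libraries. M-BM 4 was that library in 10 of them, M-BM 1 in 3, M-BM 2 in 2 and M-BM 3 in 1. In M-BM 4 the value was above the other 3 libraries, toward Pa, for HIST1H1B (35.1, others 0 to 0.195), KRT4 (2.85, others 0 to 0.0985), LMAN1 (26.8, others 0) and CEACAM5 (1.19, others 0.0985 to 0.195). The same held for MUC1 (16.7, others 1.94 to 2.26), S100A8 (23.4, others 3.4 to 4.38) and IL13RA1 (161.9, others 124.7 to 126.7). For NEIL3 (60.4, others 66.5 to 67.7), GGA1 (35.2, others 45.1 to 46.8) and TYMP (6.8, others 11.5 to 12), all called higher than in Pa, M-BM 4 was the lowest, again toward Pa. M-BM 1 was highest for KRT13 (19.1, others 1.46 to 2.24) and lowest for IDH2 (25.5, others 30 to 30.4) and IFIT2 (18.5, others 28.6 to 30.3). M-BM 2 was highest for ERBB2 (4184, others 2801 to 2996) and for FUT2 (0.136, others 0.0476 to 0.0492), which rests on 3 reads against 1. M-BM 3 was highest for ABCG2 (74.5, others 54.7 to 57.3).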

How the results depend on the processing

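Between M-BM and Pa, 778 genes were called higher and 1105 lower; these became 408 and 561 with the filter at a value of 50, 136 and 289 with a difference of at least 2, and 3292 and 3293 with no overlap alone, each by construction of the rule. Scaling by TMM (794 and 1093), DESeq2 size factors (767 and 1116) or quantiles (884 and 1027), the other pseudocounts, the lower filters and leaving out single libraries (746 to 847 higher, 1064 to 1166 lower) kept both counts within 1.5 times. Under these settings 94 of 2314 values of named genes moved by more than 1 SD, and no called gene changed sign. Sign was not judged for genes not called, of which SLC2A1 (0.01) ranged down to -0.03 and SLC16A3 (0.10) to -0.02. Of 688 list medians 70 moved. Sign was judged only for lists with a median of at least 1 in size, and none of these changed sign. M-BM against S-BM gave 5084 genes, and 4383 to 4889 with single libraries left out. M-BM against Lat gave 14, which became 26 with the filter at a value of 1, 24 with no filter, 5 with only these groups in the fit, 141 with DESeq2 and 12 with edgeR on the recovered reads, and 3 to 30 with single libraries left out; the cause was not tested. With the replicate number as a block the counts were 5002 against S-BM and 13 against Lat. Whether the numbers pair the libraries was not settled by the correlations of their deviations. Same-numbered deviations correlated between -0.272 and 0.319, with 4 of 12 pairs above 0.1. Other-numbered deviations correlated between -0.305 and 0.322, with 7 of 36 pairs above 0.1. Of 12 libraries, 5 correlated best with their own number. Leaving out S-BM 3 and S-BM 4 and leaving out M-BM 4 from the lists were chosen after seeing the data. Depth limits only genes at a few reads per library.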
